A study of Mus musculus with 36 samples.

Results

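Mouse ileal mucosa under a complex microbiota was set against mucosa exposed to a single strain of Escherichia coli. The comparison took 27 of the 36 samples of the series, chosen by their labels: 9 samples labelled conventional were set against 18 labelled mono-associated, 9 with E. coli CEC and 9 with E. coli Nissle, and each strain was given equal weight. The remaining 9 samples came from germfree mice and were used only to place the levels of single assays. A custom panel of 224 TaqMan assays, run as real-time PCR in OpenArray format, gave the expression values. The labels give no mouse strain, age or sex, and do not expand CEC. They give the number 21, without a unit, for colonisation of the mono-associated samples and none for the conventional ones, so length of colonisation, rearing and microbial complexity cannot be told apart. The design text speaks of pooled RNA while titles carry individual numbers, so the spread between samples may be partly technical.

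The ileum is the last part of the small intestine, where the epithelium absorbs bile acids and meets a dense microbial community. A conventional microbiota is known to hold many bacterial groups, strict anaerobes among them, whose products E. coli does not all supply, and to drive epithelial antimicrobial defence and IgA production. E. coli Nissle is a strain used as a probiotic. Mono-association, the colonisation of a germfree animal with 1 strain, is a common way to see which host responses a single bacterium can elicit. The measurements are on bulk mucosa, where fewer cells of a type and less RNA per cell cannot be told apart.

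The assays carry only the supplier's catalogue IDs. Because no table used here links an ID to its gene, 4 assays are given by ID without a gene name or function, and the labelled tissue was not checked against marker genes. A value is a Ct, the PCR cycle at which fluorescence crosses a threshold, and a lower Ct stands for more template. Scaling used each sample's mean Ct over 148 assays, those with a Ct in every one of the 27 samples. The log2 level used below is that mean minus the assay's Ct, so 1 unit is 1 PCR cycle, higher is more transcript relative to the panel, and a shift shared by the whole panel is removed. Folds assume complete amplification.

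The mean Ct of the 148 assays was 21.2 ± 0.105 (SD, n = 9) in conventional, 21.3 ± 0.245 in CEC and 21.3 ± 0.165 in Nissle samples. Conventional samples gave a Ct for 217 to 222 assays, CEC samples for 198 to 221 and Nissle samples for 175 to 219. The lowest of these, 175, was Nissle replicate 6, where 47 of 49 undetermined wells lay among the first 112 assays of the table. CEC replicate 7 was measured for 217 assays but lay far from the other CEC samples. The median absolute distance of its levels from those of its group was 1.10 log2 units, against at most 0.465 in any other sample, and 34 of 217 tested assays lay more than 3 log2 units away, 23 below and 11 above. Results are therefore given with all 27 samples and without these 2 samples, which leaves 25, of which 16 are mono-associated.

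Most of the panel differed little between a complex microbiota and a single strain, and a small set of assays differed a lot. Of 217 assays tested, 44 (20.3%) passed the threshold in limma (adjusted p under 0.05), 17 higher (7.83%) and 27 lower (12.4%) in conventional samples. The highest difference was a 16.7-fold higher level and the lowest an 8.27-fold lower level. Differences of more than 2-fold made up 8 of the 17 higher calls and 7 of the 27 lower ones. In the 25 samples, 73 of 216 assays (33.8%) passed, 28 higher and 45 lower.

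**Figure D1:**
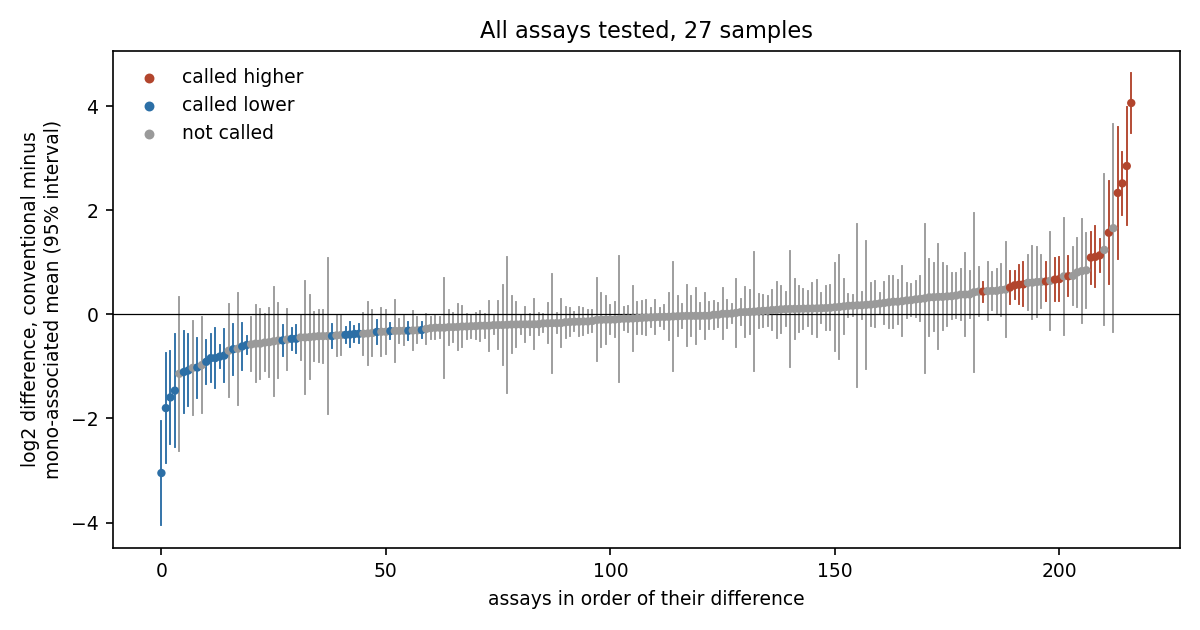
Log2 difference of each of the 217 assays tested, conventional minus the mean of the mono-associated group means, with its 95% confidence interval, in order of size; 27 samples. The 17 assays called higher reach 4.06 log2 units and the 27 called lower reach -3.05, while the quartiles of all assays lie at -0.31 and 0.23.

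The middle of the distribution lay close to 0. The median difference over all 217 assays was -0.06 log2 units, with quartiles at -0.31 and 0.23. The median was 0.73 among the assays called higher and -0.62 among those called lower, and the smallest differences called were 0.44 and -0.30. For 146 of the 217 assays the 95% confidence interval lay within 1 log2 unit either side of 0, and for 59 within 0.5. In the others a larger difference than that remains possible. The median interval reached 0.438 log2 units either side with all samples and 0.332 without the 2 samples that stood apart.

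Assay Mm00472168_m1 had the highest difference. Its Ct was 18.5 at the lowest, 19.7 at the median and 21.0 at the highest in the 9 conventional samples, against 22.6, 23.7 and 24.2 in CEC samples. In the 8 Nissle samples with a value the lowest Ct was 23.2 and the median 24.007. The log2 level of Mm00472168_m1 ran from 0.18 to 2.83 with a median of 1.67 in conventional samples, from -3.17 to -1.02 with a median of -2.56 in CEC and from -3.61 to -2.12 with a median of -2.68 in Nissle samples. Every conventional sample thus lay above all 17 mono-associated samples with a value, with more than 1 log2 unit between the groups. The difference for Mm00472168_m1 was 4.06 ± 0.28 log2 units (SE; limma, adjusted p = 1.63e-11), and the fold of 16.7 had a 95% confidence interval of 11.2 to 24.8. The assay was 3.81 ± 0.32 above CEC and 4.31 ± 0.33 above Nissle, and it was 4.16 ± 0.25 above the mono-associated mean in the 25 samples. In a fit of all 36 samples, Mm00472168_m1 differed from germfree by 3.52 ± 0.32 log2 units in conventional (limma, adjusted p = 3.5e-10), -0.29 ± 0.32 in CEC (adjusted p = 0.646) and -0.79 ± 0.33 in Nissle samples (adjusted p = 0.164), comparisons that share the germfree samples. When that fit was made without the 2 samples that stood apart, these values were 3.47 ± 0.29 (limma, adjusted p = 1.07e-11), -0.53 ± 0.30 (adjusted p = 0.193) and -0.84 ± 0.30 (adjusted p = 0.04997), so the Nissle difference then lay just past the threshold.

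Assay Mm00441127_m1 came next. Its Ct in conventional samples was 12.2 at the lowest, 13.0 at the median and 14.5 at the highest, which places it among the earliest Ct values of the panel. In Nissle samples the Ct ran from 15.1 to 17.2 with a median of 16.2. In 8 CEC samples the Ct lay between 14.8 and 16.4, and in CEC replicate 7 it was 22.6. On the log2 level scale Mm00441127_m1 lay between 6.68 and 8.94 (median 8.25) in conventional, between -0.85 and 6.30 (median 5.77) in CEC and between 4.23 and 5.97 (median 5.20) in Nissle samples, so again no mono-associated sample reached the conventional range. The difference was 2.85 ± 0.55 log2 units (SE; limma, adjusted p = 0.000617). As a fold it was 7.21, with a 95% confidence interval of 3.27 to 15.9. The estimate and its error were both smaller without the 2 samples that stood apart, where the difference for Mm00441127_m1 was 2.48 ± 0.25 (adjusted p = 2.38e-08). In those 25 samples the assay was 2.27 ± 0.30 above CEC and 2.69 ± 0.30 above Nissle. Relative to germfree, in the fit of all 36 samples, Mm00441127_m1 was 3.19 ± 0.56 log2 units higher in conventional samples (limma, adjusted p = 6.22e-05), and the differences were 0.23 ± 0.56 in CEC (adjusted p = 0.855) and 0.46 ± 0.56 in Nissle samples (adjusted p = 0.629). With those 2 samples left out they were 3.14 ± 0.26 (limma, adjusted p = 1.07e-11), 0.88 ± 0.27 (adjusted p = 0.0140) and 0.46 ± 0.27 (adjusted p = 0.225), so CEC differed from germfree in this second fit and not in the other.

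Assay Mm01208559_m1 had the lowest difference. Its Ct ran from 24.8 to 27.5 with a median of 26.6 in conventional samples and from 22.7 to 24.1 with a median of 23.2 in the 8 Nissle samples with a value. In 8 CEC samples the Ct lay between 21.8 and 24.1, and in CEC replicate 7 it was 28.8. The log2 level of Mm01208559_m1 lay between -6.36 and -3.59 (median -5.41) in conventional, between -7.06 and -0.55 (median -2.34) in CEC and between -2.67 and -1.23 (median -1.84) in Nissle samples. Of the 17 mono-associated samples with a value 16 lay above every conventional sample, and CEC replicate 7 lay below every one. The difference was -3.05 ± 0.49 log2 units (SE; limma, adjusted p = 5.29e-05), an 8.27-fold lower level with a 95% confidence interval of 4.13 to 16.6. Without the 2 samples that stood apart it was -3.31 ± 0.28 (adjusted p = 9.18e-10), at -3.30 ± 0.32 against CEC and -3.32 ± 0.32 against Nissle. In the fit of all 36 samples, Mm01208559_m1 differed from germfree by 2.02 ± 0.55 log2 units in Nissle (limma, adjusted p = 0.0255), 1.47 ± 0.53 in CEC (adjusted p = 0.0873) and -1.31 ± 0.53 in conventional samples (adjusted p = 0.0696), and only the Nissle difference passed. With those 2 samples left out all 3 passed, at 1.97 ± 0.36 in Nissle (limma, adjusted p = 0.000475), 1.95 ± 0.36 in CEC (adjusted p = 0.000363) and -1.36 ± 0.35 in conventional samples (adjusted p = 0.00239).

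Assay Mm00452283_m1 followed among the lower calls. Its Ct was 21.5 at the lowest, 22.6 at the median and 23.4 at the highest in conventional samples, and 18.9, 20.3 and 22.8 in Nissle samples. In CEC samples the lowest was 19.5, the median 20.5 and the highest 26.1, in CEC replicate 7. The log2 level of Mm00452283_m1 ran from -2.07 to -0.16 (median -1.44) in conventional, from -4.27 to 1.48 (median 0.94) in CEC and from -1.57 to 2.57 (median 1.22) in Nissle samples. Of the 18 mono-associated samples 15 lay above every conventional sample, so the groups overlapped. They also did without CEC replicate 7 and Nissle replicate 6, where 1 of 16 mono-associated samples still lay within the conventional range. The difference was -1.80 ± 0.52 log2 units (SE; limma, adjusted p = 0.0142). In the 25 samples it was -2.22 ± 0.30 (adjusted p = 2.01e-06). Against CEC alone it did not pass with all samples, at -1.49 ± 0.60 (adjusted p = 0.106), and it did without the 2 samples, at -2.02 ± 0.35 (adjusted p = 8.7e-05). Against Nissle alone Mm00452283_m1 passed in both cases, at -2.11 ± 0.60 (adjusted p = 0.0172) and -2.42 ± 0.35 (adjusted p = 7.44e-06). In the fit of all 36 samples it was -1.67 ± 0.53 relative to germfree in conventional (adjusted p = 0.0180), -0.18 ± 0.53 in CEC (adjusted p = 0.877) and 0.44 ± 0.53 in Nissle samples (adjusted p = 0.629). With the 2 samples left out these were -1.72 ± 0.32 (limma, adjusted p = 8.34e-05), 0.30 ± 0.33 (adjusted p = 0.528) and 0.70 ± 0.33 (adjusted p = 0.130), with the same calls.

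**Figure D2:**
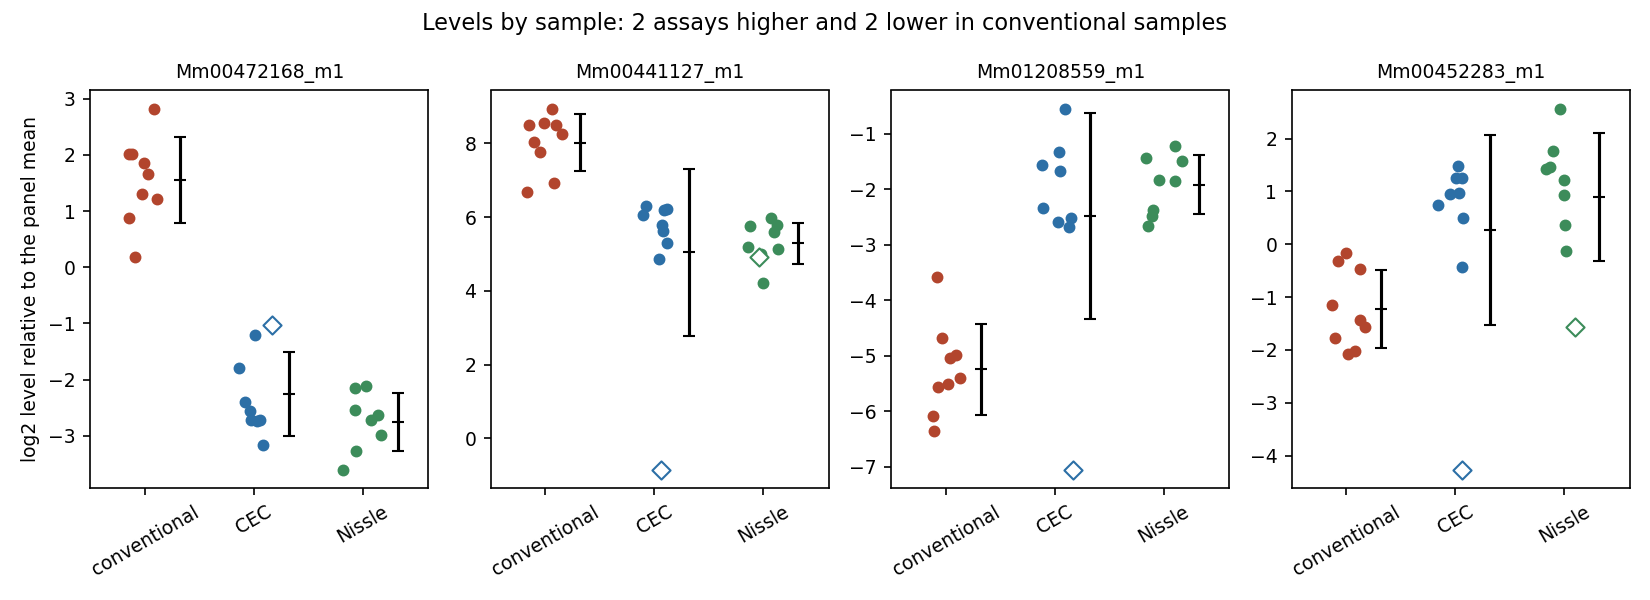
Log2 level relative to the panel mean of the 4 assays named in the text, 1 point per sample, with the mean and SD of each group of all its samples beside the points; open diamonds are CEC replicate 7 and Nissle replicate 6. In Mm00472168_m1 and Mm00441127_m1 all 9 conventional samples lie above every mono-associated sample, and in Mm01208559_m1 and Mm00452283_m1 CEC replicate 7 lies below all conventional samples.

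Groups without any overlap were rare. All 9 conventional samples lay above every mono-associated sample in 3 assays (1.38% of 217) and below every one in 2 assays (0.922%), and all 5 were among the 44 calls. Without CEC replicate 7 and Nissle replicate 6 these counts were 3 (1.39% of 216) and 7 (3.24%). The third highest difference of all was 2.52 ± 0.29 log2 units (limma, adjusted p = 4.37e-07).

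CEC replicate 7 stood far from its group in many of the 15 calls of more than 2-fold. In 9 of the 15, and in 9 of all 44 calls, it lay more than 3 log2 units from its group, as it did in 34 of the 217 assays tested. Without it and Nissle replicate 6, 14 of the 15 were called again. The exception, at a mean Ct of 29.8 and a difference of 1.09 log2 units (limma, adjusted p = 0.00426), then had too few CEC values to be tested. With all samples conventional levels of that assay were 0.20 log2 units above CEC and 1.98 above Nissle, and only the latter passed. Of all 44 calls, 16 higher and 27 lower ones were called in the same direction in the 25 samples.

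Single samples differed in how far they followed their group. For each of the 44 called assays a midpoint was set between the conventional mean and the mono-associated mean, and the assays on the conventional side of it were counted per sample. These assays were chosen for the difference between the same groups, so the counts describe it and test nothing. Conventional samples had 32 to 42 of the 44 on their own side, with a median of 38. CEC samples had 2 to 22, with a median of 5, and Nissle samples 4 to 12, with a median of 7. The sample with 22 was CEC replicate 7, and without it the CEC samples ran from 2 to 12. The Nissle sample with 12 was Nissle replicate 6, which had a Ct for only 36 of the 44 assays, against at least 42 in any other sample. Without it the Nissle samples ran from 4 to 11.

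**Figure D3:**
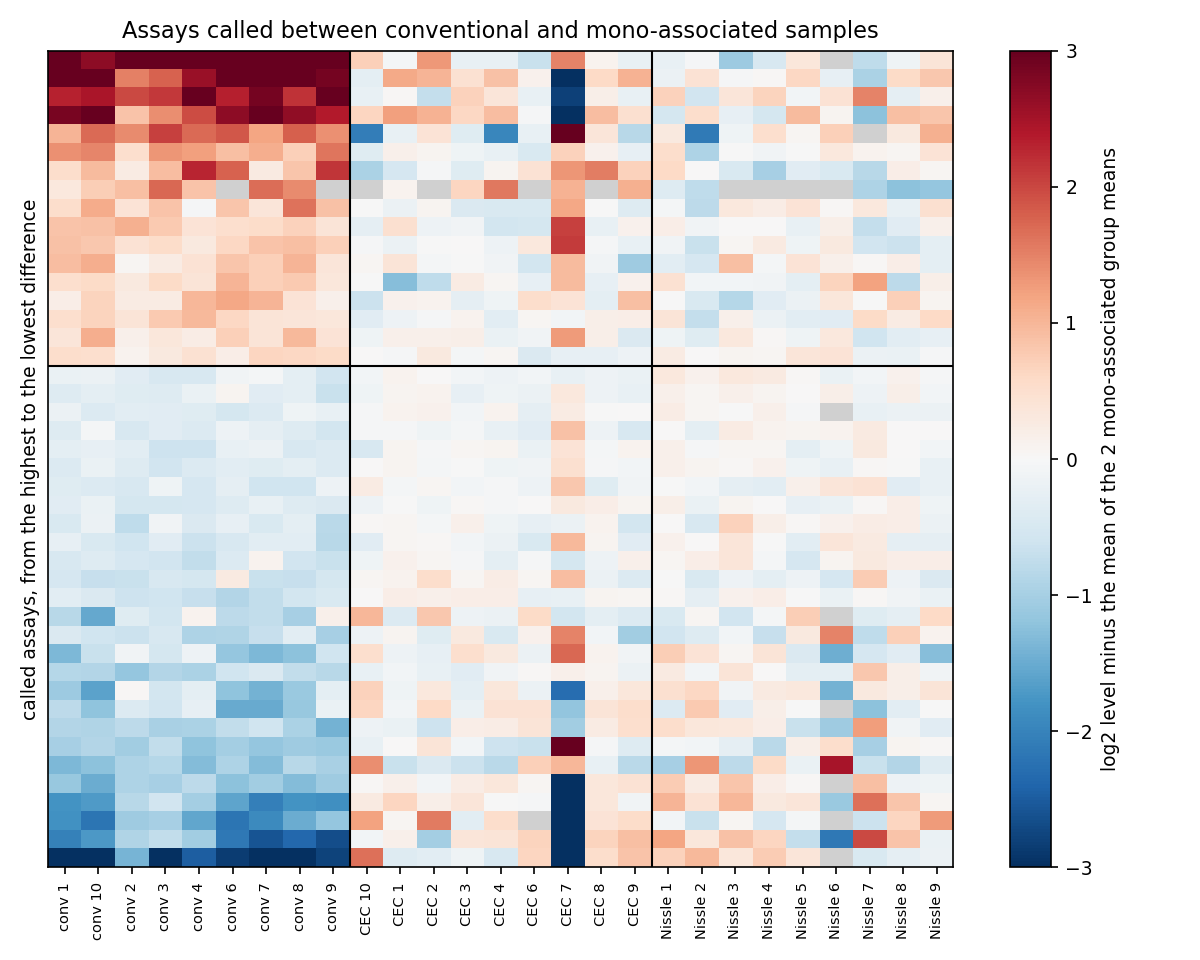
Log2 level of the 44 called assays (rows, 17 higher above the line and 27 lower below it) in 27 samples (columns), minus the mean of the 2 mono-associated group means; colours are capped at 3 log2 units either side and grey marks wells without a Ct. Conventional samples share the pattern, and CEC replicate 7 differs from the other CEC samples in both directions.

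The spread between samples differed between the groups as well. The median SD over 217 assays was 0.326 log2 units in conventional, 0.562 in CEC and 0.452 in Nissle samples, and conventional samples had the smallest SD of the 3 groups in 137 assays. Without CEC replicate 7 and Nissle replicate 6 the median SDs were 0.341, 0.343 and 0.422, and conventional samples had the smallest SD in 101 of 216 assays. With stretch scaling in the same 25 samples they were 0.223, 0.300 and 0.340, and conventional samples had the smallest SD in 129 assays. The median SD was thus lowest in conventional samples each time, at its closest by 0.341 against 0.343 in CEC samples. The order of CEC and Nissle samples turned when the 2 samples were left out. No test of spread was run.

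Each strain was also set against conventional samples on its own, with the same conventional samples in both comparisons. Against CEC, limma called 29 of 217 assays (13.4%): in conventional samples 12 were higher (5.53%) and 17 lower (7.83%). Against Nissle it called 35 (16.1%), of which 15 were higher (6.91%) and 20 lower (9.22%). The balance turned with the scaling: against CEC it was 12 higher and 7 lower with the panel median, 12 and 9 with raw Ct and 11 and 8 under quantile normalization. Against Nissle it was 23 and 9, 17 and 6, and 13 and 6 in the same order. Stretch scaling, explained below, kept more lower calls, with 14 higher and 28 lower against CEC and 18 and 27 against Nissle. In the 25 samples the counts were 52 of 216 against CEC (24.1%; 24 higher and 28 lower) and 66 against Nissle (30.6%; 25 and 41). There the panel median gave 30 and 25 against CEC, quantile normalization 24 and 22, and raw Ct 18 and 30, which kept the balance. Against Nissle the panel median gave 34 and 22, raw Ct 28 and 25, and quantile normalization 28 and 24. Stretch scaling again kept more lower calls, with 32 and 47 against CEC and 32 and 55 against Nissle. The difference between the strains themselves was tested in the same limma fit, and 1 of 217 assays (0.461%) passed. At an unadjusted p under 0.05 there were 12. In the 25 samples the assay that had passed held too few CEC values to be tested. Of the 216 tested there, 0 passed in limma, and 17 had an unadjusted p under 0.05. Among the 44 assays called between conventional and mono-associated samples, the difference of Nissle from CEC ran from -1.78 to 1.005 log2 units, and in 31 of them its 95% confidence interval lay within 1 log2 unit of 0. Its median size was 0.176 log2 units in those 44 and 0.202 over all 217 assays.

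The values also moved with the position of an assay in the deposited table. The mean Ct of 4 consecutive stretches of 56 assays moved in part separately within samples. Each mean was taken over the scaling assays of its stretch, 16, 28, 52 and 52 in order, so the first rests on the fewest. In a single sample the stretches' shifts from their medians over the 27 samples lay up to 1.04 cycles apart. The median was 0.515, and in 15 of 27 samples they lay more than 0.5 apart. Over the 25 samples, after removing group means, the mean Ct of the first stretch correlated with that of the second at a Pearson r of 0.632 and with that of the third at -0.316. Between the third and the fourth stretch r was 0.745. It was -0.206 between the first and the fourth, 0.255 between the second and the third and 0.365 between the second and the fourth. These are descriptions, and the stretches of a sample share its RNA. The labels do not say how the panel was laid out on the cards, and the cause of the shifts was not tested. The shift moved with the comparison too. The difference in mean Ct, conventional minus mono-associated with equal weight per strain, was -0.228 cycles in the third stretch and 0.061 in the fourth. In the first and second stretch the difference was -0.0282 and -0.0439 cycles.

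**Figure D4:**
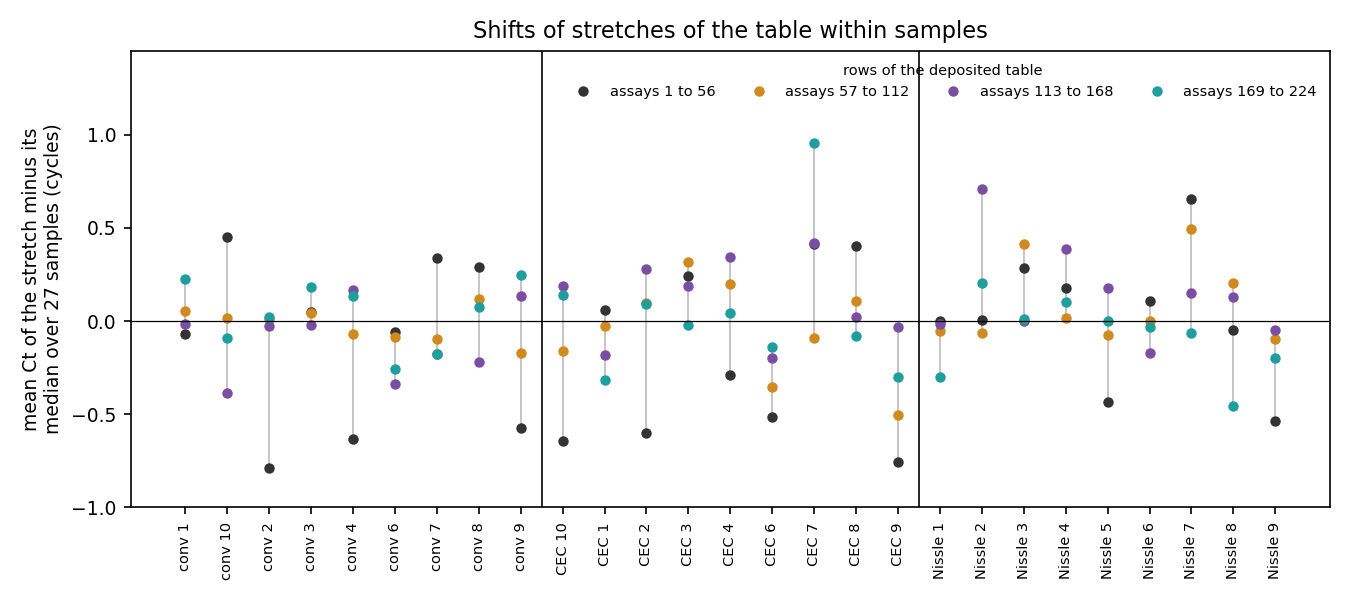
Mean Ct of the scaling assays in 4 stretches of 56 consecutive assays of the table, 16, 28, 52 and 52 in order. Each of the 27 samples is shown minus the median of that stretch over the samples, in cycles. A grey line joins the stretches of a sample. Within a sample the stretches lie 0.206 to 1.04 cycles apart, and the first stretch moves the most, from -0.79 to 0.652.

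The direction of the calls moved with the same stretches. In the third stretch 9 assays were called higher and 3 lower of 55 tested, and in the fourth 5 higher and 13 lower of 55. The first stretch held 1 higher and 4 lower calls of 55, and the second 2 and 7 of 52. Each stretch was then scaled to the mean Ct of its own scaling assays, an alternative chosen after seeing the data. With it the third stretch held 8 higher and 14 lower calls, and the fourth 6 and 7. That scaling lowered the median residual SD from 0.53 to 0.44 log2 units with all samples and from 0.39 to 0.31 in the 25 samples. It called 57 of 217 assays (26.3%), 23 higher and 34 lower, and 99 of 216 (45.8%) in the 25 samples, 39 higher and 60 lower. Any difference in transcripts shared by a whole stretch is removed by this scaling.

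The balance between higher and lower calls moved with the scaling. With the panel mean 17 were higher and 27 lower, with the panel median 21 and 9, with raw Ct 19 and 14, under quantile normalization 18 and 15, and with stretch scaling 23 and 34. In the 25 samples the splits were 28 and 45, 36 and 29, 26 and 39, 33 and 30, and 39 and 60 in the same order. Across these 10 fits, 13 assays were called higher and 7 lower in every one. Of the calls over 2-fold, 7 of 8 higher and 3 of 7 lower ones were in that set, and of the smaller calls 6 of 9 higher and 4 of 20 lower ones. The remaining higher call over 2-fold could not be tested in the 25 samples, so it could not enter the set. The 4 assays named above were in the same direction and past the threshold in all 10.

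**Figure D5:**
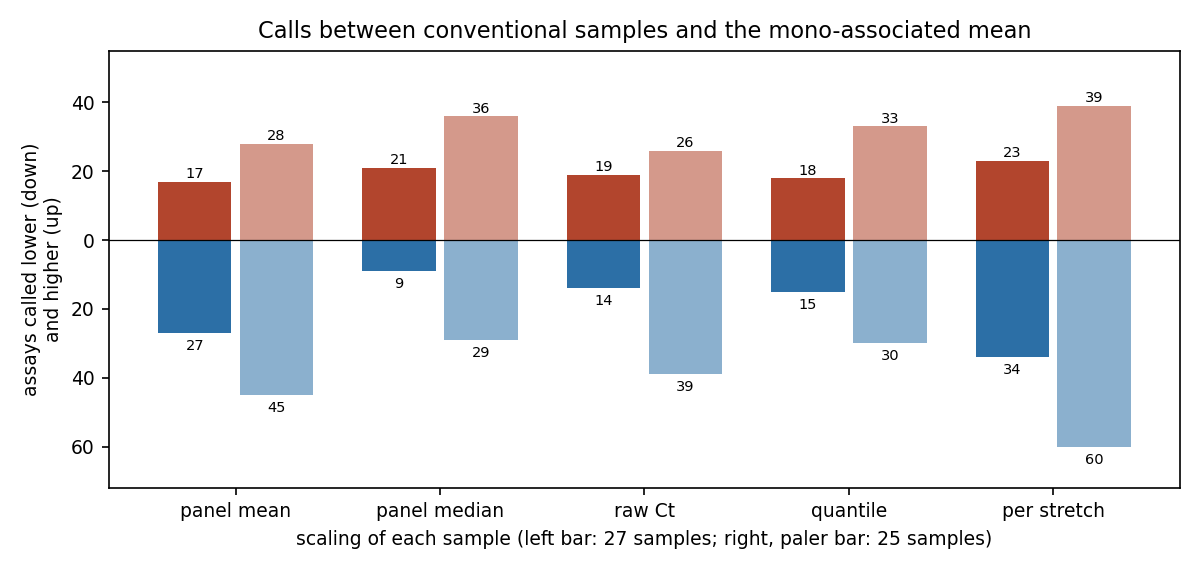
Number of assays called higher (red, up) and lower (blue, down) in conventional samples than in the mono-associated mean under 5 scalings of the samples, with all 27 samples (left bars) and without CEC replicate 7 and Nissle replicate 6 (right, paler bars). The count runs from 30 with the panel median and 27 samples to 99 with stretch scaling and 25 samples.

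Called assays were compared with the rest by features that did not enter the choice. Ordered by mean Ct, the 55 assays with the earliest values (12.9 to 19.6) held 3 higher and 11 lower calls, 25.5% against 20.3% of all assays tested. The 54 with the latest values (23.3 to 30.1) held 6 higher and 2 lower, or 14.8%. The median difference was -0.08 log2 units among the earliest and 0.15 among the latest. The residual SD was larger among the latest, with a median of 0.714 against 0.490. The share of the earliest assays moved with the scaling. With stretch scaling they held 4 higher and 8 lower calls and the latest 7 and 3, while 26.3% of all assays were called. By the supplier's suffix, which describes where primers and probe sit on the gene model, 14 higher and 20 lower calls fell among the 172 tested assays ending in m1, whose probe spans an exon junction (19.8%). Of the 17 tested assays ending in g1, which may also detect genomic DNA, 1 was called higher and 5 lower (35.3%). Of the 5 ending in gH, which in addition belong to families of high sequence homology, 1 was higher and 2 were lower. Of the 23 ending in s1, which lie within a single exon and so can also detect genomic DNA, 1 was called (4.35%). In the 25 samples m1 held 23 higher and 36 lower calls, g1 1 and 5, gH 1 and 2, and s1 3 and 2. There 33.8% of all assays were called. The part of genomic DNA in these values was not tested.

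In the panel 7 assays were measured in too few samples for a comparison of levels. Of these, 2 gave no Ct in any of the 27 samples. The other 5 were compared by how often they were measured, with Fisher's exact test against all 18 mono-associated samples, and none passed after adjustment (smallest adjusted p = 0.456, two-sided; 0 at an unadjusted p under 0.05). The assay with the smallest p was measured in 8 of 9 conventional, 5 of 9 CEC and 4 of 9 Nissle samples (Fisher's exact test, unadjusted p = 0.0912).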

How the data were processed

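The deposited table holds raw Ct values, a score with no normalization by the authors, per the file headers, whose opening line calls the table a truncated example. RNA came from a mirVana kit and was run on OpenArray cards, per the labels' protocols. How thresholds were set, and the amplification efficiency, is not given in the sources used here. Columns were matched to samples by title.

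A Ct of 40 was treated as missing (225 of 6048 wells, 3.72%). The other values lay between 11.6 and 32.4. For scaling, 148 assays with a Ct in every one of the 27 samples were averaged (183 in the 25). Assays measured in at least 5 samples of each group were fitted with limma 3.58.1 in R 4.3.3 (lmFit, eBayes, 1 term per group), two-sided, with Benjamini-Hochberg adjustment over all assays tested and a threshold of 0.05, after a check of the step on simulated data. No pair of samples shared a Ct, so no column was a copy of another. Each sample was counted as 1, although this check cannot tell whether RNA was pooled.

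The comparison and rules were chosen with earlier results of these data known. Assays were named by rule: the 2 highest and 2 lowest differences among the calls, since no table pairs IDs with genes. For the same reason the gene lists, marker check and reference-gene scaling were not run. Alternatives covered scaling, missing wells, filters, samples, spread and a replicate block.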

Additional observations from a re-analysis of the deposited data

Results flagged for a closer look

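Dixon's ratio was checked in 24 sets of values, 1 per group and measure, and 8 held a sample past its critical value. Chance alone gives about 1 in 20 for independent values from a normal distribution. Counts of wells and assays are not such values, and the sets share samples, so 8 of 24 cannot be set against that rate. CEC replicate 7 lay far below the other CEC samples in 3 of the 4 named assays, at a log2 level of -0.85 in Mm00441127_m1 (nearest other sample 4.87), -7.06 in Mm01208559_m1 (nearest -2.68) and -4.27 in Mm00452283_m1 (nearest -0.44). The same sample had a median absolute distance from its group of 1.10 log2 units (nearest 0.362) and 34 assays more than 3 log2 units away (nearest 5). Undetermined wells stood out in CEC replicate 6, with 26 (nearest 9), and in Nissle replicate 6, with 49 (nearest 9). Conventional replicate 3 stood out with 2 assays more than 3 log2 units from its group (nearest 1).

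The strains differed past the threshold in 1 assay. It is the call of more than 2-fold that could not be tested again in the 25 samples. Nissle was -1.78 ± 0.30 log2 units relative to CEC (limma, adjusted p = 0.00498). Conventional samples differed by 0.20 from CEC (limma, adjusted p = 0.682) and by 1.98 from Nissle (adjusted p = 0.00011). Its call against the mono-associated mean thus held against Nissle and not against CEC. The assay was measured in only 5 CEC, 5 Nissle and 7 conventional samples, at a median Ct of 29.7.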

How the results depend on the processing

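The 4 named assays kept their direction and their call against the mono-associated mean in each alternative that gave them a value, 47 for Mm00441127_m1 and Mm00452283_m1 and 46 for the other two, which were not measured in all samples and so were absent when the fit was limited to assays that were. Over these alternatives the adjusted p was at most 2.41e-08 for Mm00472168_m1, 0.00553 for Mm00441127_m1, 0.00916 for Mm01208559_m1 and 0.0322 for Mm00452283_m1 (limma). The counts of calls moved more. Against the mono-associated mean (44 calls) limma made 73 without CEC replicate 7 and Nissle replicate 6, 76 with those left out and the original 148 scaling assays, 93 with sample quality weights and 99 with stretch scaling and those 2 left out. Leaving out 1 sample at a time gave 35 to 68 calls, the last without CEC replicate 7. Against CEC (29 calls) the counts were 19 with median scaling, 19 with quantile normalization and 75 with quality weights. With the 2 samples left out they were 52, 57 with the original scaling assays, 79 with stretch scaling, 55 with the median, 48 with raw Ct and 46 with quantile normalization. Leaving out 1 sample gave 21 to 54, the last without CEC replicate 7. Against Nissle (35 calls) the counts were 23 with raw Ct, 19 with quantile normalization, 81 with quality weights and 65 with only the compared groups fitted. With the 2 samples left out they were 66, 64 with the original scaling assays, 87 with stretch scaling, 56 with the median and 53 with raw Ct. Leaving out 1 sample gave 28 to 62, the last without CEC replicate 7.

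Deviations of 25 pairs with the same replicate number correlated at -0.47 to 0.37, with 9 over 0.1. No pairs with different numbers stand beside them, so these values do not settle whether samples were paired. With a replicate block the counts were 41, 31 and 30 against the mono-associated mean, CEC and Nissle, and 80, 61 and 70 with the 2 samples left out. Scaling to reference genes was not run, since the assays have no gene names. Late Ct values limit the precision of low transcripts, and the number of samples limits all of it.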
